A study of Zea mays with 6 samples.

Results

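Unplaced contigs are assembled stretches of a genome that could not be assigned to a chromosome. In the maize build B73 RefGen_v4 their names begin with B73V4_ctg, and the loci described here are all those whose name begins that way. They numbered 473 of 45736 loci (1.03%) and lay on 109 contigs, of which 39 held a single locus and the fullest held 33. No measured value entered this choice.

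Maize (Zea mays) kernels, each with its endosperm, embryo and surrounding maternal layers, were pooled at 15 days after pollination and their RNA was sequenced. Wild-type kernels (WT replicates 1 and 3, n = 2) were compared with kernels of the defective kernel mutant dek42-ref (replicates 1, 2 and 3, n = 3), and WT replicate 2 was not analysed here. The product of Dek42 is known as a splicing-related RNA-binding protein, and the question is how transcript levels differ in the mutant. The labels do not give the genetic background, do not say whether WT kernels came from the same ears as the mutants, and do not say that replicates are separate plants, so p-values below measure the spread between these pools. In whole kernels, fewer cells of a type and less RNA per cell cannot be told apart.

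Sequence that occurs in many near-identical copies is hard to place on chromosomes, and tandem arrays of such copies are a common content of unplaced contigs. The best known arrays in plant genomes are the ribosomal RNA genes, in which one unit is repeated along the nucleolus organizer and each unit is transcribed as a precursor that is cut into several mature RNAs. Reads from near-identical copies cannot be placed with certainty, so a sum over copies is firmer than the value of any single copy. The sources used here do not say how shared reads were divided among copies.

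The deposited values are FPKM, fragment counts divided by transcript length and by the library's mapped total. The files name loci by position only, so no gene name or function was assigned to any of them, and the labelled tissue and the Dek42 locus could not be checked against named genes. Read depth was not given, so no counting interval can be attached to a value, and a value listed as exactly 0 may be an estimate that failed. limma was run on log2(FPKM + 1) for loci reaching 1 FPKM in 2 or more libraries, a scale that understates the change of low loci, with Benjamini-Hochberg adjustment over all 20327 tested loci and a threshold of 0.05. Over all of them 7966 rose in dek42-ref and 465 fell, with a median log2 change of 0.54. Because FPKM is relative to each library's total, sums and calls were also computed on a median-ratio scale: the values of a library are divided by a size factor, the median of their ratios to the geometric means of the loci. The size factors were 0.786 and 0.760 in WT and 1.12, 1.26 and 1.22 in dek42-ref, and after scaling 1618 loci rose, 1627 fell and the median was 0.02.

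Of the 473 contig loci, 221 on 76 contigs could be tested (46.7%, against 44.4% of loci elsewhere). Another 154 were listed at 0 in every library (32.6%, against 31.04% elsewhere), and 98 were above 0 somewhere but too low to test. The filter can be met by either group alone: 16 of the 221 were under 1 FPKM in both WT libraries and 0 were under 1 FPKM in all dek42-ref libraries. The tested contig loci were short, with a median span of 1811 bases against 3834 bases for tested loci elsewhere. Spans are end minus start as the files give them, with starts counted from 0.

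Many contig loci shared an exact span. A span of 156 bases occurred 35 times and a span of 1811 bases occurred 21 times, and no other span was shared by at least 4 contig loci with 1 FPKM or more in at least 2 libraries. The copies lay beside each other: 31 of the 35 loci of 156 bases had a locus of 1000 to 1900 bases within 300 bases, in 20 cases one of exactly 1811 bases. The gap between them was 199 to 226 bases, with a median of 219. Of the 22 steps from one locus of 156 bases to the next on the same contig, none was shorter than 8765 bases and 10 were between 8500 and 9500 bases. The 13 contigs that held a copy of either span are called repeat-unit contigs here, a grouping made after the values had been seen, and the other 96 are called other contigs.

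**Figure D1:**
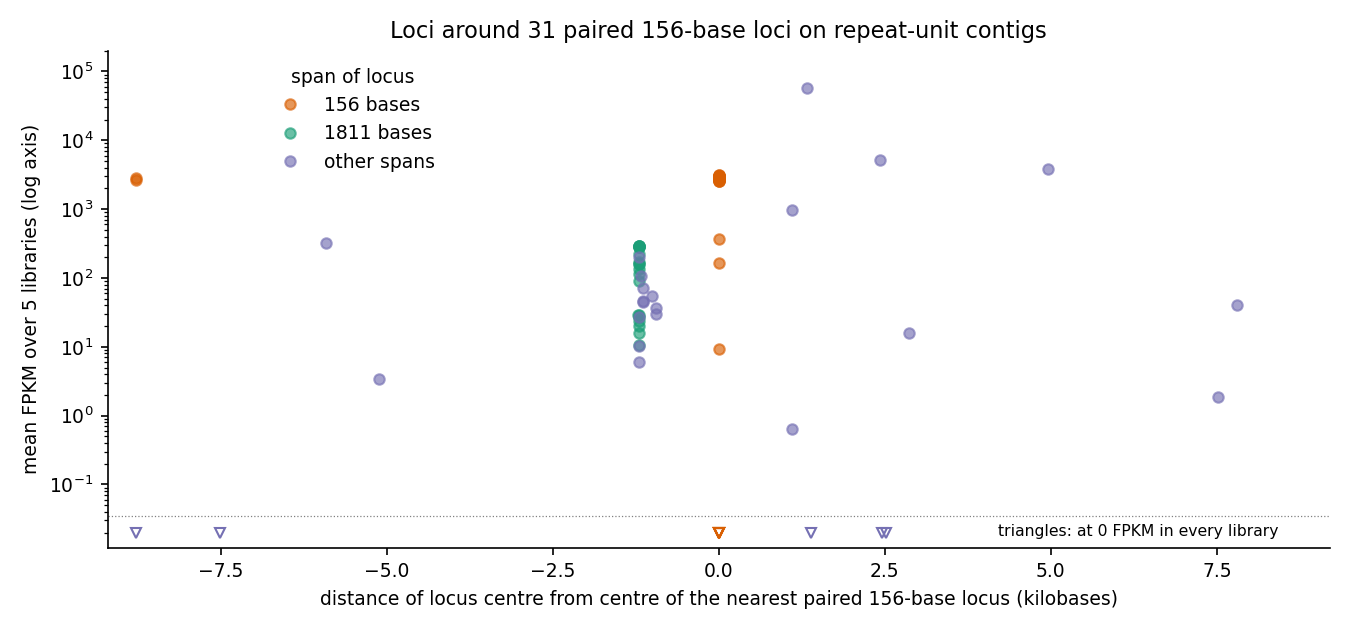
Mean FPKM over 5 libraries (log axis) of loci on repeat-unit contigs, against the distance in kilobases from the nearest of 31 loci of 156 bases that have a longer neighbour within 300 bases, with triangles for loci at 0 in every library. Each neighbourhood was turned so that the longer neighbour lies at negative distance. The column of loci of 1811 bases and similar spans on that side was therefore set by the drawing. The most abundant locus lies on the other side of its short locus.

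The RefSeq annotation of another maize assembly, Zm-B73-REFERENCE-NAM-5.0, was used for lengths only, since it shares no identifier with the files. Its lengths shared by at least 100 genes, at least 90% of them of the type rRNA, are 119, 156, 1811 and 3383 bases. It lists 574 genes of 156 bases (565 rRNA) and 468 of 1811 bases (462 rRNA). It also lists 709 genes of 119 bases (687 rRNA) and 384 of 3383 bases (378 rRNA), and 0 contig loci had either of those spans. On its chromosome 6, 181 of the 185 rRNA genes of 1811 bases lie next to an rRNA gene of 156 bases. A shared length describes these loci and does not identify them.

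Contig loci took up a larger share of summed FPKM in dek42-ref. Their FPKM summed to 66109 and 57237 in WT and to 261699, 234891 and 157248 in dek42-ref. Every dek42-ref library exceeded both WT libraries. The means were 61673 ± 6273 (SD, n = 2) and 217946 ± 54248 (SD, n = 3), a 3.53-fold ratio. The exact two-sided permutation test gave p = 0.1, the smallest value that 10 splits of 2 against 3 libraries allow. As a share of all FPKM, contig loci held 5.07% and 5.10% in WT and 17.9%, 15.9% and 12.6% in dek42-ref (exact permutation p = 0.1). FPKM divides by length, so short loci weigh more in such a share than in a share of fragments. After median-ratio scaling the ratio of sums was 2.29-fold (exact permutation p = 0.2).

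FPKM summed over all loci off contigs had a ratio of dek42-ref to WT of 1.02 (exact permutation p = 0.7). Repeat-unit contigs held nearly all contig FPKM, 94.6% and 94.9% in WT and 98.5%, 98.2% and 97.5% in dek42-ref. Their sums were 62520 and 54307 in WT and 257730, 230571 and 153239 in dek42-ref, 3.66-fold higher in the mutant (exact permutation p = 0.1; 2.38-fold and p = 0.2 after scaling). The other contigs summed to 3589 and 2930 in WT and to 3968, 4321 and 4010 in dek42-ref. That ratio was 1.26 as deposited and turned to 0.811 after scaling (exact permutation p = 0.1 on both scales). As a share of all FPKM the other contigs held 0.275% and 0.261% in WT and 0.271%, 0.293% and 0.321% in dek42-ref, so the groups overlapped (exact permutation p = 0.3).

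**Figure D2:**
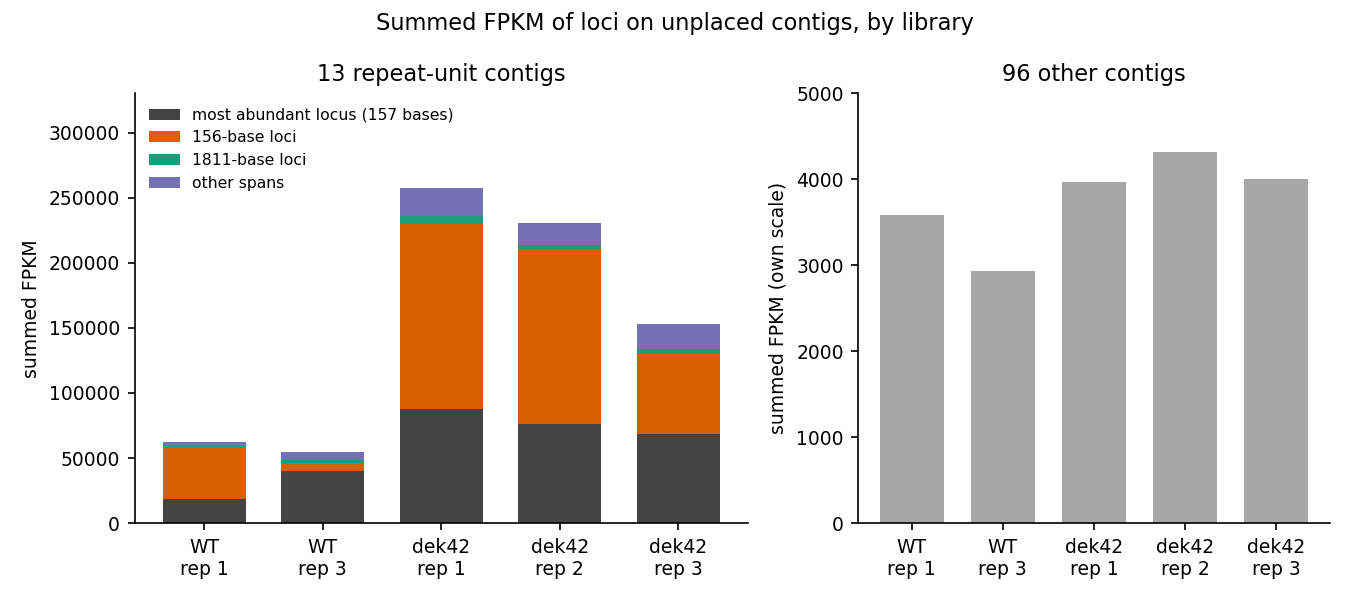
Bars give summed FPKM of contig loci per library (2 WT, 3 dek42-ref) on repeat-unit contigs, stacked by the most abundant locus, the 156-base, the 1811-base and the remaining loci, and on other contigs with an axis of their own. Repeat-unit contigs reach 153239 to 257730 in dek42-ref against 54307 and 62520 in WT, while other contigs stay between 2930 and 4321.

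Among the 221 tested contig loci, 121 rose as deposited (54.8%, against 39.2% of all tested loci) and 6 fell (2.71%, against 2.29%), and the median log2 change was 0.95. On the median-ratio scale 25 rose (11.3%, against 7.96%) and 15 fell (6.79%, against 8.00%), with a median of 0.52. All 25 that rose after scaling had also risen as deposited, and all 6 that fell as deposited also fell after scaling. The size factors were lower in WT than in dek42-ref, so scaling lowers every change and this nesting was largely set in advance. The count of rises depended on the libraries used. Without dek42-ref replicate 1, 2 or 3 it was 75 of 217, 64 of 214 and 79 of 216 as deposited. These were 34.6%, 29.9% and 36.6%, against 34.7%, 26.5% and 25.0% of all tested loci. After scaling 6, 8 and 4 rose (2.76%, 3.74% and 1.85%, against 3.75%, 3.02% and 1.96%).

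Most of the rises lay on the repeat-unit contigs. Of their 103 loci, 81 were tested and 16 were at 0 in every library. As deposited 71 of the 81 rose (87.7%, against 39.2% of all tested loci) and none fell, with a median log2 change of 2.23. Of the 81, 3 were under 1 FPKM in both WT libraries and entered the test only through dek42-ref. They are among the 71, and their calls add no support. All 81 had a change above 0, and in 80 every dek42-ref library lay above both WT libraries, an order that 60.9% of all tested loci showed. On the median-ratio scale 14 rose (17.3%), 0 fell, and the median was 1.64. Calls as deposited dropped to 51 without WT replicate 1, 54 without WT replicate 3, 30 without dek42-ref replicate 1, 32 without dek42-ref replicate 2 and 47 without dek42-ref replicate 3. After scaling they were 34 without WT replicate 1 and 48 without WT replicate 3, but 3, 5 and 3 without dek42-ref replicates 1, 2 and 3. These copies are not independent of each other, so their number does not add evidence as separate genes would.

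**Figure D3:**
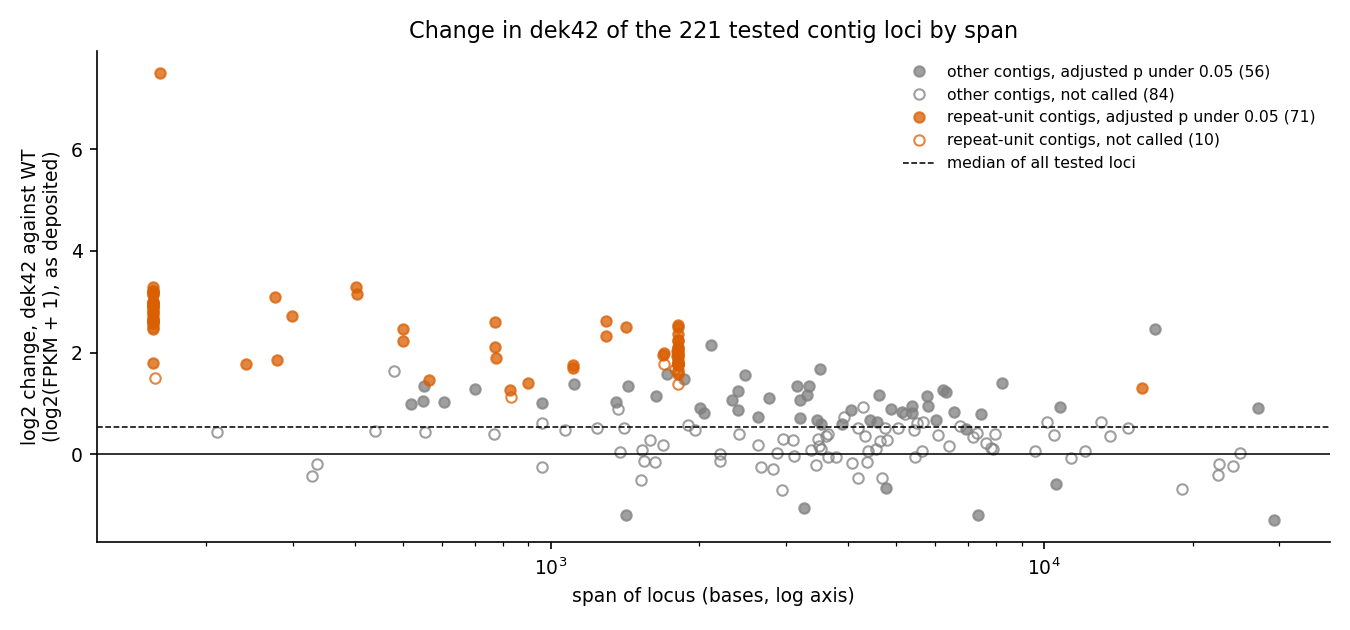
The limma log2 change (dek42-ref minus WT) of each tested contig locus against its span in bases (log axis), for repeat-unit contigs and other contigs, filled where adjusted p was under 0.05 and with a dashed line at the median of all tested loci, 0.54. The 81 loci of repeat-unit contigs all lie above 0, and the 140 loci of other contigs lie on both sides of 0.

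The loci of 156 bases were among the highest in FPKM on the contigs, and 27 of the 35 were tested. In WT replicate 1 the 27 ranged from 1119 to 1972 FPKM with a median of 1439, and in WT replicate 3 from 111 to 1050 with a median of 200.5. The medians in dek42-ref were 5235, 4791 and 2278 FPKM in replicates 1, 2 and 3. In all 27 every dek42-ref library exceeded both WT libraries, an order that 60.9% of all tested loci showed. As deposited 24 of them rose (88.9%, against 39.2% of all tested loci) and after scaling none did (against 7.96%). Their median log2 change of 2.90 (range 1.80 to 3.30) became 2.27 after scaling. At the lower end of the range, the copy at 330543 to 330699 of contig B73V4_ctg140 had 1333 and 1050 FPKM in WT and 5353, 5548 and 2335 in dek42-ref (limma adjusted p = 0.018). At the upper end, the copy at 5281 to 5437 of contig B73V4_ctg205 had 1386 and 111 in WT and 4781, 5344 and 2278 in dek42-ref (limma adjusted p = 0.036). The pair differed most in WT replicate 3.

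The WT libraries differed from each other in these copies. WT replicate 1 was above WT replicate 3 in 27 of 27, by a median of 7.70-fold (range 1.27 to 14.9). Copies of 156 bases summed to 40350 and 6136 FPKM in WT and to 142713, 134488 and 61560 in dek42-ref. The ratio of means was 4.86-fold (exact permutation p = 0.2). It was 3.19-fold after scaling, 18.4-fold without WT replicate 1 and 2.80-fold without WT replicate 3. Within a library the copies were close, with a coefficient of variation of 7.55% to 14.4% in every library but WT replicate 3, where it was 76.7%.

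The 8 untested copies of 156 bases stood apart from the tested ones. Of these, 5 were at 0 in every library and 3 were above 0 in a single library, at 824, 46.1 and 1843 FPKM. All 3 of those values were in dek42-ref libraries.

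**Figure D4:**
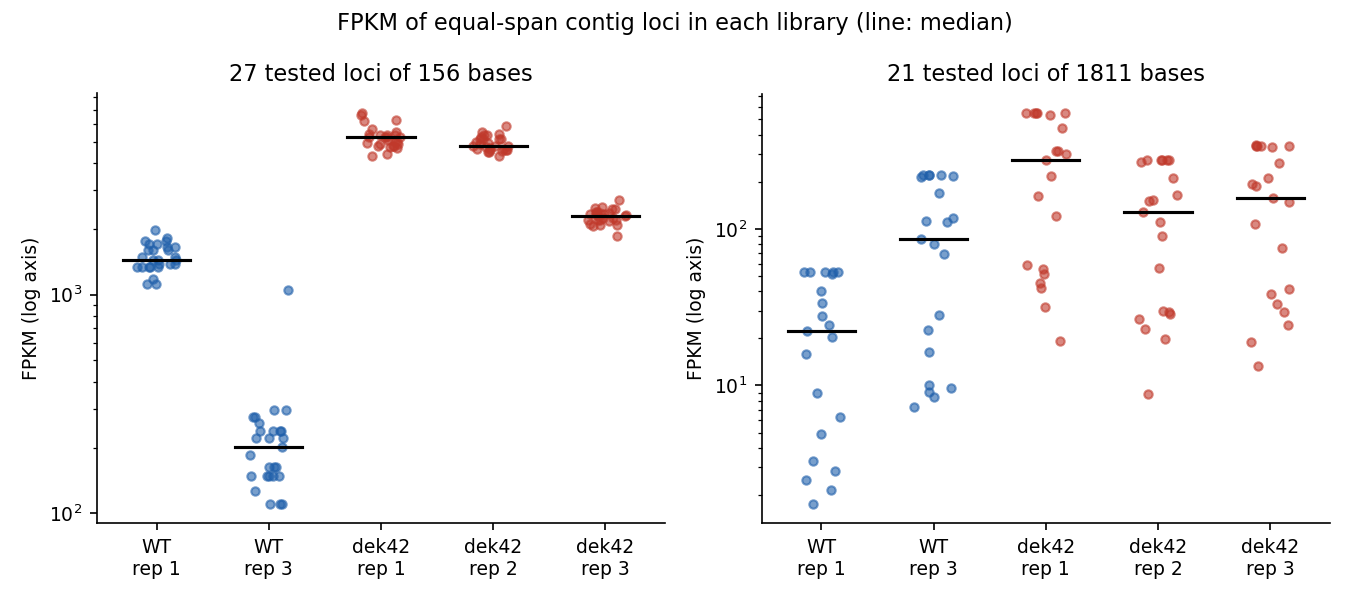
FPKM (log axis) of each tested copy of 156 bases and of 1811 bases in each of 5 libraries, with a line at the median. WT replicate 1 lies above WT replicate 3 for the short copies and below it for the long copies, and the dek42-ref libraries have the highest medians for both spans.

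The 21 loci of 1811 bases, all tested, were less abundant. Their medians were 22.4 and 86.1 FPKM in WT and 274, 129 and 158 in dek42-ref. In 20 of 21 every dek42-ref library lay above both WT libraries, an order that 60.9% of all tested loci showed. As deposited 19 rose (90.5%, against 39.2% of all tested loci) and after scaling 2 did (9.52%, against 7.96%). Their median log2 change of 1.81 (range 1.38 to 2.54) became 1.18 after scaling. Here the WT libraries differed in the opposite direction to the short copies: WT replicate 3 exceeded WT replicate 1 in 21 of 21, by a median of 4.10-fold (range 3.04 to 5.49). Over all 20327 tested loci, WT replicate 3 was the higher one in 9622. The sums were 533 and 2166 FPKM in WT and 5717, 2863 and 3579 in dek42-ref, a 3.0-fold ratio of means (exact permutation p = 0.2) that was 1.95-fold after scaling, 1.87-fold without WT replicate 1 and 7.60-fold without WT replicate 3.

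Copies of 1811 bases varied more among themselves than the short ones did. On 4 contigs 5 copies had values within 2% of each other in every library, at about the highest level of the class. The lowest copy, at 51509 to 53320 of contig B73V4_ctg166, had 1.76 and 9.66 FPKM in WT and 19.2, 8.82 and 13.3 in dek42-ref. Its groups overlapped, and it did not pass as deposited (limma adjusted p = 0.091). The 2 copies that rose on both scales were also low. The copy at 79659 to 81470 of contig B73V4_ctg203 had 3.28 and 9.99 FPKM in WT and 58.8, 29.8 and 33.2 in dek42-ref, a log2 change of 2.54 ± 0.44 (SE, limma adjusted p = 0.0071, and 0.043 after scaling). The copy at 20581 to 22392 of contig B73V4_ctg204 had 2.86 and 9.04 in WT and 51.4, 26.6 and 29.3 in dek42-ref, and its groups did not overlap either.

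The same 2 spans also occur off the contigs. Of 27 loci of 156 bases off the contigs, 19 were on chromosome 6 and 10 were tested. As deposited 7 of these loci rose (70%, against 39.2% of all tested loci) and after scaling 1 did (10%, against 7.96%). They summed to 33741 and 9007 FPKM in WT and to 113218, 136717 and 57479 in dek42-ref, a 4.79-fold ratio beside 4.86-fold on contigs (3.12-fold after scaling, 11.4-fold without WT replicate 1 and 3.04-fold without WT replicate 3). Of 15 loci of 1811 bases off the contigs, 8 were on chromosome 6 and 12 were tested. As deposited 9 rose (75%, against 39.2%) and after scaling 0 did (against 7.96%). Their ratio of sums was 2.93-fold beside 3.0-fold on contigs (1.90-fold after scaling, 1.89-fold without WT replicate 1 and 6.55-fold without WT replicate 3). The WT libraries ran in opposite directions there too: the short copies summed higher in WT replicate 1, and the long copies, at 240 and 833 FPKM, higher in WT replicate 3.

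The repeat-unit contigs also held 47 loci of other spans, and these carried 12 of the 14 rises that held on both scales on these contigs. Of 33 tested, 28 rose as deposited (84.8%, against 39.2% of all tested loci) and 12 after scaling (36.4%, against 7.96%). Their median log2 change was 1.95 as deposited. The 3 loci under 1 FPKM in both WT libraries are among the 28, and the one at 292309 of B73V4_ctg140 is among the 12. Some others of the 33 had only 1 WT library at 1 FPKM or more and met the filter only with dek42-ref. In all 33 every dek42-ref library lay above both WT libraries (against 60.9% of all tested loci), and in 30 WT replicate 3 exceeded WT replicate 1. They summed to 21637 and 46005 FPKM in WT and to 109300, 93220 and 88100 in dek42-ref (2.86-fold, exact permutation p = 0.1). That ratio was 1.84-fold after scaling and 4.48-fold without WT replicate 3.

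One of them was the most abundant contig locus, a span of 157 bases at 12293 to 12450 of contig B73V4_ctg153. It had 18442 and 39918 FPKM in WT and 87434, 76112 and 68327 in dek42-ref. Every dek42-ref library was above both WT libraries, which differed from each other by more than 2-fold. The ratio of means was 2.65-fold, and the locus did not pass the test (log2 change 1.5 ± 0.78 SE, limma adjusted p = 0.16). This locus held 27.9% and 69.7% of all contig FPKM in WT and 33.4%, 32.4% and 43.5% in dek42-ref.

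The next most abundant was a span of 500 bases at 26509 to 27009 of contig B73V4_ctg154, with 902 and 2822 FPKM in WT and 7473, 7368 and 7646 in dek42-ref. The mutant libraries lay close together and well above both WT libraries, 4.03-fold by the means (limma adjusted p = 0.014, and 0.085 after scaling). A span of 772 bases at 17436 to 18208 of contig B73V4_ctg203 had 1346 and 1487 FPKM in WT and 6002, 4132 and 5981 in dek42-ref. It rose 3.79-fold as deposited (limma adjusted p = 0.0047) and fell just short of the threshold after scaling (0.051).

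Spans of 770 and 771 bases on the same kind of contig rose on both scales. The one at 26446 to 27216 of contig B73V4_ctg203 had 99.2 and 195 FPKM in WT and 936, 664 and 980 in dek42-ref, 5.85-fold higher (limma adjusted p = 0.0027, and 0.019 after scaling). The one at 14139 to 14910 of contig B73V4_ctg166 had 84.4 and 131 in WT and 457, 396 and 528 in dek42-ref, 4.27-fold higher (limma adjusted p = 0.0020, and 0.017 after scaling). Neither showed any overlap of the groups.

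Larger ratios came from loci that were low or absent in WT. The locus at 12861 to 13022 of contig B73V4_ctg167 was listed at 0 in WT replicate 1 and had 27.9 FPKM in WT replicate 3, against 2037, 861 and 521 in dek42-ref (limma adjusted p = 0.0071, and 0.025 after scaling). It met the filter only with dek42-ref, so its call adds no support. The locus at 5411 to 5813 of contig B73V4_ctg171 had 1.87 and 7.35 FPKM in WT and 67.0, 40.7 and 37.8 in dek42-ref, 10.5-fold higher. The locus at 41149 to 41554 of contig B73V4_ctg203 had 2.28 and 3.24 in WT and 39.9, 33.5 and 25.3 in dek42-ref, 11.9-fold higher. Both rose on both scales without overlap (limma adjusted p = 0.020 and 0.0057 after scaling). The locus at 292309 to 292584 of contig B73V4_ctg140 was listed at 0 in both WT libraries and had 5.18, 13.5 and 5.95 FPKM in dek42-ref. It entered the test only through dek42-ref, so its call adds no support.

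Tested spans of 1802 to 1810 bases on repeat-unit contigs all had log2 changes above 0 as deposited, from 1.62 to 2.11, but not all passed the test. The locus of 1808 bases on contig B73V4_ctg205 (49016 to 50824) had 0.914 and 3.23 FPKM in WT and 15.4, 9.86 and 9.27 in dek42-ref and rose on both scales (limma adjusted p = 0.0077, and 0.048 after scaling). Only 1 of its WT libraries reached 1 FPKM, so it met the filter only with dek42-ref and its call adds no support. The locus of 1807 bases on contig B73V4_ctg154 (1359 to 3166) had 40.7 and 172 FPKM in WT and 380, 191 and 241 in dek42-ref. Its dek42-ref libraries were all above WT, but WT replicate 3 came close to the lowest of them, and the locus passed on neither scale (limma adjusted p = 0.062).

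On other contigs the shares of loci called lay near those over all tested loci. Of 140 tested loci on 63 of these contigs, 50 rose as deposited (35.7%) and 6 fell (4.29%), with a median log2 change of 0.48. After scaling 11 rose (7.86%) and 15 fell (10.7%), with a median of -0.04. Every dek42-ref library lay above both WT libraries in 75 of the 140 loci, an order that 60.9% of all tested loci showed. All lay below both in 9 (6.43%, against 5.54% of all tested loci), and the groups overlapped in 56. Of the 140, 13 were under 1 FPKM in both WT libraries and entered the test only through dek42-ref. Levels were modest, with a median over loci of 7.30 FPKM and a range of 0.535 to 326.

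The 6 loci that fell as deposited also fell after scaling, which lowers every change, and all were on other contigs. The most abundant was the locus at 4351 to 11693 of contig B73V4_ctg100, the only locus of its contig, with 202 and 171 FPKM in WT and 94.7, 67.9 and 82.5 in dek42-ref. It fell 2.28-fold (log2 change -1.19 ± 0.18 SE, limma adjusted p = 0.0045, and 0.0074 after scaling). The locus at 597985 to 627204 of contig B73V4_ctg150, which spans 29219 bases, had 248 and 111 FPKM in WT and 79.1, 64.8 and 58.6 in dek42-ref, 2.66-fold lower (limma adjusted p = 0.022). The WT libraries differed from each other here by more than WT replicate 3 differed from the mutant.

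The other 4 that fell were lower or changed less. The locus at 248689 to 250107 of contig B73V4_ctg181 had 7.93 and 4.44 FPKM in WT and 1.39, 3.08 and 1.87 in dek42-ref. The locus at 30304 to 33567 of contig B73V4_ctg115 had 5.80 and 5.28 in WT and 1.84, 2.60 and 2.03 in dek42-ref, 2.57-fold lower. Smaller falls were found at 421410 to 431957 of contig B73V4_ctg31, 1.53-fold, and at 15010 to 19789 of contig B73V4_ctg129, 1.58-fold. In all 4 every dek42-ref library was below both WT libraries.

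Of the 11 loci of other contigs that rose on both scales, 3 with large ratios are given here. The 11 also include the locus at 46641 to 48363 of contig B73V4_ctg3, which was under 1 FPKM in both WT libraries. The locus at 17566 to 34329 of contig B73V4_ctg134 had 1.66 and 0.393 FPKM in WT and 13.3, 6.54 and 9.97 in dek42-ref, 9.67-fold higher (limma adjusted p = 0.0047, and 0.024 after scaling). Only 1 of its WT libraries reached 1 FPKM, so it met the filter only with dek42-ref and its call adds no support. The locus at 42963 to 45072 of contig B73V4_ctg115 had 0.605 and 0.678 in WT and 4.99, 6.77 and 7.14 in dek42-ref, 9.82-fold higher. It was under 1 FPKM in both WT libraries and so was tested only because dek42-ref was higher, and its call adds no support. It shares its contig with one of the loci that fell. The locus at 50633 to 54140 of contig B73V4_ctg107 had 5.68 and 7.03 in WT and 22.2, 20.2 and 24.8 in dek42-ref, 3.53-fold higher and without overlap (limma adjusted p = 0.0018, and 0.015 after scaling).

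Some abundant loci of other contigs passed on neither scale. The locus at 334997 to 335553 of contig B73V4_ctg53 had 475 and 127 FPKM in WT and 268, 313 and 447 in dek42-ref, so the mutant libraries fell between the WT ones (limma adjusted p = 0.51). The locus at 28927 to 30307 of contig B73V4_ctg121 had 173 and 204 in WT and 153, 245 and 190 in dek42-ref, with overlapping groups (limma adjusted p = 0.90).

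By contig the division was the same. Summed FPKM was compared for 21 contigs with at least 4 tested loci or among the 5 most abundant. In the 12 of them that were repeat-unit contigs the ratio of dek42-ref to WT ran from 2.74 to 5.26 with a median of 4.65, and the groups did not overlap in any of the 12, or in 8 of the 12 after scaling. In the 9 others it ran from 0.865 to 1.69 with a median of 1.15, and 6 did not overlap (5 after scaling). As deposited B73V4_ctg31 lay below WT and the rest of those 6 above. The 5 after scaling all lay below WT, and only B73V4_ctg31 was apart in the same direction on both scales. After scaling the ranges of the ratio in the 12 and the 9 were 1.77 to 3.45 and 0.558 to 1.09. The ratios of the repeat-unit contigs depended on the WT library used: they ran from 2.05 to 23.2 without WT replicate 1 and from 2.56 to 4.21 without WT replicate 3. Contig B73V4_ctg205 moved most, from 4.66 to 23.2 or 2.59. Contig B73V4_ctg153, the most abundant, summed to 20225 and 40720 FPKM in WT and to 95672, 82590 and 72344 in dek42-ref. Its ratio of 2.74 was the lowest of the 12 as deposited, but without WT replicate 3 it was 4.13, the second highest. Contig B73V4_ctg31 summed to 91.6 and 79.8 in WT and to 71.1, 73.7 and 77.5 in dek42-ref, all below WT (exact permutation p = 0.1). Contig B73V4_ctg182 had 7 of 13 tested loci called higher as deposited, and its sum ratio of 1.53 became 0.987 after scaling.

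**Figure D5:**
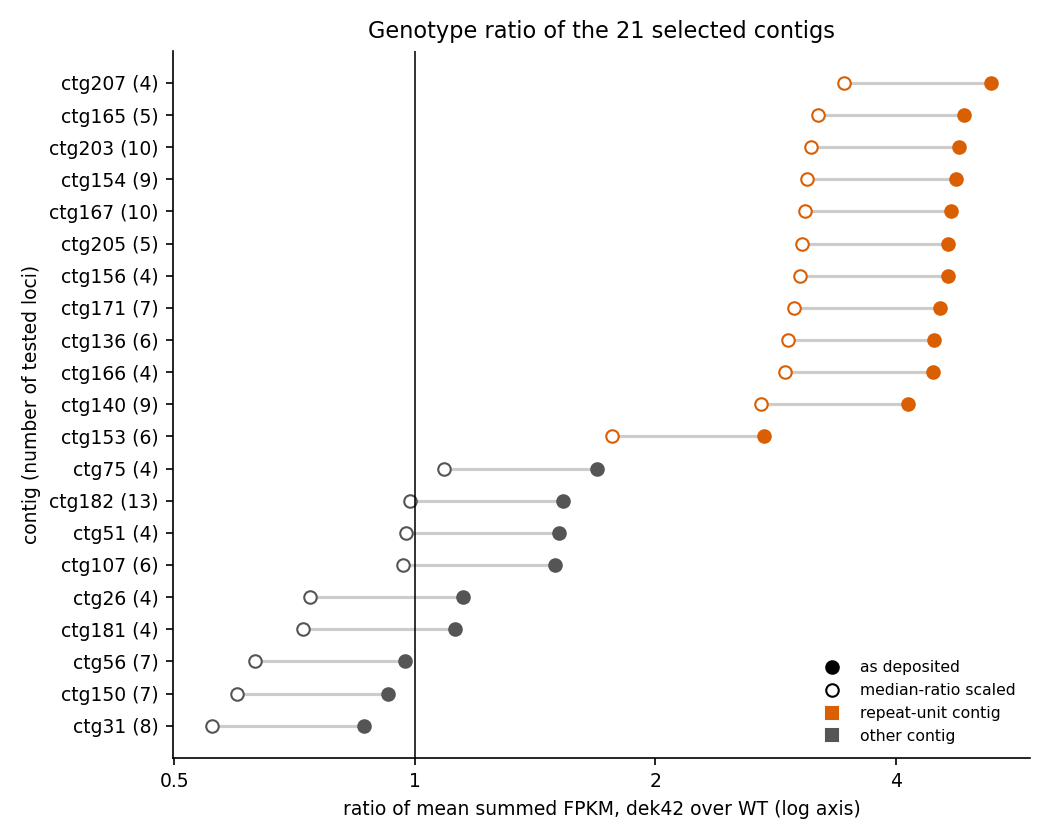
Ratio of mean summed FPKM in dek42-ref to WT for 21 contigs, as deposited (filled) and after median-ratio scaling (open), on a log axis with the number of tested loci beside each contig. The 12 repeat-unit contigs lie at 2.74 to 5.26 as deposited and the 9 others at 0.865 to 1.69.

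By span, contig loci had higher median changes as deposited than loci elsewhere in the middle classes. These classes include loci of repeat-unit contigs, among them the 21 copies of 1811 bases. On other contigs alone, the 135 tested loci over 500 bases had a median log2 change of 0.48, against 0.54 over all tested loci. Of these 135, 50 rose (37.0%, against 39.2%). After scaling their median was -0.04, against 0.02, and 11 rose (8.15%, against 7.96%) and 15 fell (11.1%, against 8.00%). Contig loci over 1000 and up to 2000 bases had a median log2 change of 1.77 against 0.63 off contigs (1.14 against 0.18 after scaling). In that class 37 of 56 rose (66.1%, against 38.8% off contigs), and after scaling 7 rose (12.5%, against 10.1%) and 2 fell. Those over 500 and up to 1000 bases had a median of 1.14 against 0.69 (0.80 against 0.25 after scaling). There 12 of 17 rose (70.6%, against 37.2%), and after scaling 3 rose (17.6%, against 13.05%). Those over 200 and up to 500 bases had a median of 1.86 against 0.96 (1.23 against 0.55 after scaling). There 8 of 13 rose (61.5%, against 35.8%), and after scaling 6 rose (46.2%, against 18.6%). Loci of up to 200 bases had a high median in both places, 2.90 on contigs and 3.05 elsewhere. Medians of long loci lay closer together: those over 2000 and up to 5000 bases had medians of 0.38 and 0.53, and those of more than 5000 bases 0.49 and 0.48. Summed FPKM of contig loci over 5000 bases was 1017 and 766 in WT and 849, 823 and 836 in dek42-ref, so the groups overlapped (exact permutation p = 0.7). The ratio of 0.938 became 0.607 after scaling (exact permutation p = 0.1). No test of the difference between contig loci and others within a class was made.

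Small loci that did not share the 156-base span were nearly all at 0. Of 63 such loci of up to 200 bases, 61 were at 0 in every library and 2 were tested. They included 32 loci of 71 to 74 bases on 10 contigs, all at 0 in every library. Most RefSeq genes of 72, 73 or 74 bases in the NAM-5.0 assembly have the type tRNA, 288 of 294, 326 of 329 and 274 of 298.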

How the data were processed

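Pooled kernels of 2 genotypes were sequenced, and 5 libraries were analysed, 1 file each. The deposited values are FPKM, per the file headers. The submitters' processing notes list TopHat2 2.1.0, Cufflinks 2.2.1 and the build B73 RefGen_v4 but assign no role to them. For RNA selection, strand and the division of shared reads, the method is not given in the sources. The labels give total RNA.

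Names occurring as 2 rows were dropped (14, none on contigs). Loci reaching 1 FPKM in 2 or more libraries were tested with limma 3.58.1 in R 4.3.3 (mean-variance trend, genotype as the only term) on log2(FPKM + 1), fitted over all loci, with Benjamini-Hochberg adjustment and a threshold of 0.05. The fit was tested on simulated data. Sums were compared by exact two-sided permutation over 10 splits. Folds are ratios of mean FPKM.

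Loci named were the 10 most abundant, up to 10 of the largest called rises and falls in which the higher group averaged 5 FPKM or more and the groups were apart, up to 10 each way over 500 bases called on both scales, and the 5 most abundant over 500 bases called on neither. Other loci given with values, the lowest copy of 1811 bases and the untested copies, were chosen after their values were seen. Rescaled and left-out-library values for sums off the contigs and for other spans on repeat-unit contigs were chosen after seeing the data. Members, lists and the grouping of contigs were chosen with earlier results of these data known. Replicates 1 and 3 occur in both groups, but same-numbered libraries did not deviate together (r = 0.0057 and -0.015 over 20327 loci), so the numbers were not taken as pairs.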

Additional observations from a re-analysis of the deposited data

How the results depend on the processing

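As deposited, 121 contig loci rose and 6 fell. With no filter on low values 65 rose, after quantile normalization 24 rose and 13 fell, after median-ratio scaling 25 rose and 15 fell, and leaving out 1 library at a time gave 64 to 87 rises and 2 to 7 falls. On the median-ratio scale these were 8 rises and 9 falls with no filter, and 4 to 58 rises and 5 to 18 falls with 1 library left out. With a replicate block, which assumes pairs the data did not show, 93 rose as deposited (42.1%, against 20.7%). After scaling 3 rose (1.36%, against 0.78%) and 2 fell (0.90%, against 0.55%). On repeat-unit contigs the 71 rises became 25 with no filter, 14 after median-ratio scaling, 16 after quantile normalization and 30 to 54 with 1 library left out. On other contigs the 50 rises became 26 with the block (18.6%, against 20.7%). They became 11 and 8 after those scalings (7.86% and 5.71%, against 7.96% and 7.48%). The 6 falls became 15 and 13 (10.7% and 9.29%, against 8.00% and 7.83%). With 1 dek42-ref library left out, 32 to 45 rose and 2 to 5 fell. The median change of 0.95 was 1.20 and 1.12 with pseudocounts of 0.1 and 0.5, 0.49 with no filter, 1.34 with a minimum of 5 FPKM, 0.52 and 0.40 after scaling and 0.81 to 1.02 with 1 library left out. Ratios of sums that changed side of 1 after median-ratio scaling were those of other contigs (0.811), spans over 2000 and up to 5000 bases (0.874) and contigs B73V4_ctg107 (0.967), B73V4_ctg182 (0.987), B73V4_ctg181 (0.724), B73V4_ctg26 (0.740) and B73V4_ctg51 (0.977). With 1 library left out, ratios ran from 0.822 to 1.09 for spans over 5000 bases, 0.805 to 1.07 for B73V4_ctg150, 0.804 to 1.23 for B73V4_ctg56 and 0.993 to 1.29 for B73V4_ctg181. The log2 change of the uncalled locus at 28927 of B73V4_ctg121 turned to -0.14 with the block, -0.14 to 0.20 with 1 library left out, -0.60 and -0.56 after scaling, and that at 334997 of B73V4_ctg53 to -0.50 to 1.40 with 1 library left out, and -0.19 and -0.13 after scaling. The causes were not tested. Of the alternative values of named loci, 383 kept direction and call, 84 lost the call, 5 gained it and 8 reversed. The most abundant locus passed without the mean-variance trend (limma adjusted p = 0.020). Depth could not be assessed, and 2 WT libraries that differ by several fold in the repeated copies limit every comparison of them.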

Other observations

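The values of the loci of 156 bases in WT replicate 1 were spaced evenly. All 12 distinct values were whole multiples of 53.3 FPKM, within 0.1 FPKM, from 21 to 37 steps. In WT replicate 3 the best step was 36.9 FPKM and 6 of 12 distinct values were whole multiples of it. In dek42-ref replicates 1, 2 and 3 the best steps were 41.2, 23.0 and 28.5 FPKM. There 12 of 23, 5 of 24 and 6 of 16 distinct values were whole multiples. The read depth behind a step was not given. Of the 473 contig loci, 10 overlapped another locus.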
